A study of Mus musculus with 12 samples.

Results

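The transcription factors Egr1, Egr2, Egr3, Nr4a1, Nr4a2 and Nr4a3 and the EGR co-repressors Nab1 and Nab2 were followed in naive mouse CD8+ T cells given an activating signal, an inhibitory signal, both or neither. These 8 genes were taken by symbol from the 14323 gene rows of a read count table, with no threshold on their values. After 6 h on anti-CD3, Egr1, Egr2, Nr4a1 and Nr4a2 stood 4.01 to 26.3 times above unstimulated cells, Nab2 rose 1.34 times, and Nab1 fell slightly in a call that most other settings did not give. With an agonistic antibody to the inhibitory receptor LAIR-1 beside anti-CD3, none of the 6 genes with enough reads to test passed the adjusted threshold. Of all genes tested in this comparison, 5.76% passed. Egr1 and Nab2 were higher there without overlap between the groups, and 24.0% of all genes tested likewise showed no overlap. In this comparison Egr1 passed in 3 of 14 other settings, Nab2 in 2 and Nr4a2 in 1. Egr3 and Nr4a3 had too few reads to test.

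EGR proteins are zinc finger transcription factors that bind GC-rich DNA, and their genes are switched on within minutes of receptor signals that run through Ras, ERK and the serum response factor. NR4A proteins are orphan nuclear receptors whose activity depends mainly on how much of them is made; calcium and calcineurin signals through MEF2 factors, and CREB, drive their genes. In T cells both families follow T cell receptor engagement, EGR2 and EGR3 are known for restraining the response, and NR4A factors for promoting tolerance and exhaustion. NAB1 and NAB2 bind EGR1, EGR2 and EGR3 and repress their targets, with NAB2 itself an EGR-induced gene that closes a feedback loop.

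Spleens of 3 wild type mice, adult C57BL/6N by the methods, gave the TCRβ+CD8+CD62L+CD44- cells, which were cultured at 100000 per well for 6 h. The 4 groups each hold 1 library per mouse: unstimulated isotype (isotype control antibody alone), unstimulated anti-LAIR-1 (2.5 µg/ml of the agonistic clone 2C7), anti-CD3 isotype (2.5 µg/ml of immobilized anti-CD3 plus isotype control) and the double treatment, anti-CD3 anti-LAIR-1 (both antibodies at 2.5 µg/ml). No genetic change or added costimulation is named for any group. Anti-CD3 engages the T cell receptor complex directly, and LAIR-1 is a collagen receptor that dampens immune cell signalling.

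RNA was read near its polyadenylated end by CEL-seq, and totals of 1781218 to 2957929 reads were counted in the unstimulated isotype libraries, 3547294 to 3589194 in unstimulated anti-LAIR-1, 3478294 to 6555730 in anti-CD3 isotype and 4889990 to 7725545 in anti-CD3 anti-LAIR-1. No library stood apart, with mean correlations to its group of 0.964 to 0.987. Mitochondrial transcripts made up 17.6% to 20.9% of reads without anti-CD3 and 11.5% to 13.2% with it. The 8 T cell and CD8 markers summed to 4030 to 4528 CPM (counts scaled to library size) without anti-CD3, 2533 to 2658 CPM in anti-CD3 isotype and 3146 to 3476 CPM in anti-CD3 anti-LAIR-1. The 5 naive T cell markers summed to 3580 to 3938 CPM without anti-CD3, 401 to 487 CPM in anti-CD3 isotype and 567 to 708 CPM in anti-CD3 anti-LAIR-1, so that on both lists the 2 stimulated groups did not overlap. Cd4, Foxp3, Cd79a, Ms4a1, Csf1r, Cd14, Klrb1c and Klrk1, which define other lineages, had at most 8 reads in any library, while the broadly expressed Cst3 reached 63.1 CPM and Eomes 48.3 CPM. The part of depth, mitochondrial share and these marker levels in the anti-CD3 and anti-LAIR-1 results was not tested. Lair1 itself had at most 7 reads in any library and was not tested.

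RefSeq promoter windows on GRCm38.p6 were at hand for 6 of the 8 genes, in 10 windows, and were not used here for Egr1 and Egr3. The 250 bases before a start site of the 3 genes with the largest rise are shown because they carry, in one stretch each, the kinds of element through which such genes are known to be switched on. Capitals mark a CArG box (the core that serum response factor binds), TGACG on either strand (the core bound by CREB-type factors) and TGCGTCA on either strand, which contains the same core in reverse. The Egr2 window is chr10:67537619-67537868 on the plus strand, that of Nr4a1 chr15:101266596-101266845 on the plus strand and that of Nr4a2 chr2:57124004-57124253 on the minus strand.
Egr2: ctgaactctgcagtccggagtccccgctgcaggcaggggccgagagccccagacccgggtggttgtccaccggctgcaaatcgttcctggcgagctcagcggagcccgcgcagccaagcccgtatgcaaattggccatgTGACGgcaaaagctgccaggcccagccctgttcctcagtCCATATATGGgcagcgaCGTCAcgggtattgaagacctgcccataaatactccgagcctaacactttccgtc
Nr4a1: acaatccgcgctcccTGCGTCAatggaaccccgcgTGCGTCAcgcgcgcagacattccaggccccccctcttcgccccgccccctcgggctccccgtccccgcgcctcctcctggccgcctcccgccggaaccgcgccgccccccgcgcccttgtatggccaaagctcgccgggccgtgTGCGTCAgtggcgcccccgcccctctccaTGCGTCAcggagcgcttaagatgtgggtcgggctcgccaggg
Nr4a2: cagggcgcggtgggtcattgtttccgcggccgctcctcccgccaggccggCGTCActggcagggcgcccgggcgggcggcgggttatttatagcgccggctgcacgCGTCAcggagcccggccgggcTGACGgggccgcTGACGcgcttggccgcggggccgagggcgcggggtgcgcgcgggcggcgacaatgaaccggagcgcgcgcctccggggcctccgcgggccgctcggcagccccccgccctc

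In the Egr2 window the CArG box began at -72 from the start site, between cores at -111 and -55. Of the other Egr2 windows, the one starting at 67537316 held a CArG box but no TGACG, and the one starting at 67535249 held none of the motifs searched. CArG boxes occurred in 1.47% of 32851 promoter windows of this length. The Nr4a1 window held TGCGTCA at -235, -215, -71 and -42, a motif found in 1.75% of windows. The Nr4a2 window held TGACG at -200, -144, -123 and -111, with a MEF2 site at -167 (MEF2 sites were in 2.92% of windows). No MEF2 site was found in the windows of Nr4a1 and Nr4a3. At least 1 TGACG was found in 17.8% of windows, but 4 or more in 0.137%, and Nr4a1, Nr4a2 and Nr4a3 each had 4. The cut of 4 equals these genes' own count, and no other higher cut was counted. The Nr4a1 cores lie within its TGCGTCA matches and are not separate matches. The EGR binding motif GCGNGGGCG, present in 4.70% of windows, occurred once each before Nr4a1 (-60) and Nr4a2 (-74) and 3 times before Nab1, whose window also held TGCGTCA at -125. The Nab2 window held none of the motifs searched, which also included the full site TGACGTCA (1.55% of windows) and the NR4A site AAAGGTCA (1.34%). In the GENCODE annotation, 231 of the 250 bases of the Nab1 window and 152 of the Nr4a3 window are exonic. The Nab2 window and the printed Egr2 and Nr4a1 windows lie inside the gene spans given below. Distances are therefore to RefSeq start sites, which differ there from the outermost GENCODE start. A match describes the letters of the window and is not evidence of binding.

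**Figure D1:**
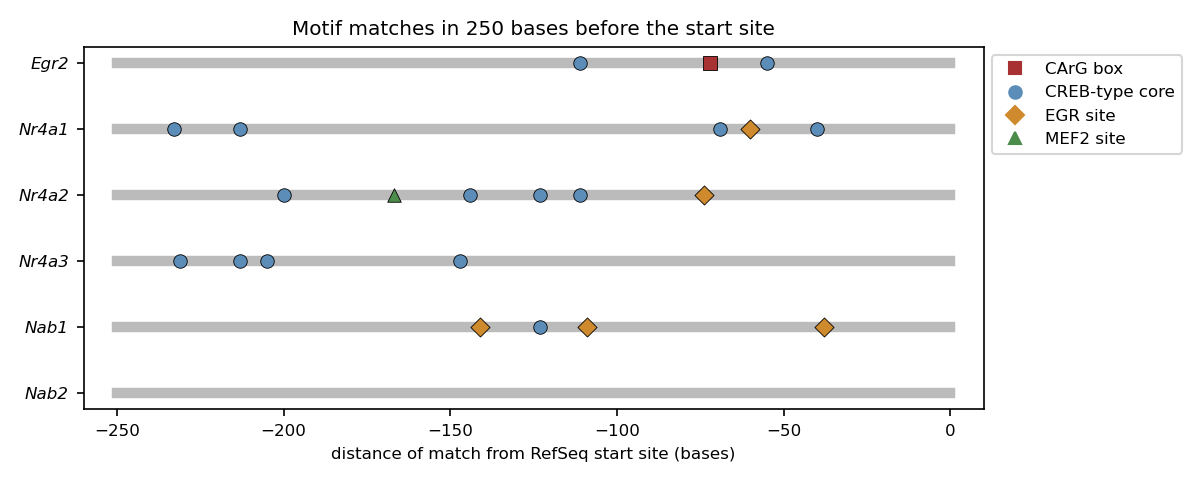
Positions of motif matches in the 250 bases before 1 RefSeq start site of 6 genes, with distance to the start site in bases on the horizontal axis. Nr4a1, Nr4a2 and Nr4a3 each show 4 CREB-type cores (circles), and only Egr2, of the genes drawn, shows a CArG box (square). For Egr2, 1 of its 5 windows is drawn. By GENCODE, 231 bases of the Nab1 window and 152 of the Nr4a3 window are exonic.

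The first question was how these genes answered anti-CD3. In the isotype libraries, 5 of the 6 tested members rose and 1 fell by edgeR's quasi-likelihood test at a Benjamini-Hochberg adjusted p of 0.05, while 35.3% of the 8690 genes tested rose and 36.1% fell. Under anti-LAIR-1, 5 of 6 rose and none fell, against 36.4% and 36.3% of 9000 genes. Calls were therefore common among all genes, and the members' rises are best read by their size: the median log2 fold change of the 6 was 2.64 with isotype and 2.81 with anti-LAIR-1, where the median of all genes was -0.03 and -0.04. The groups did not overlap for any of the 6 in either comparison, which held for 73.5% and 74.9% of all genes tested. In bulk RNA, fewer cells making a transcript and less of it per cell cannot be told apart, and CPM is a share of each library. P-values here measure the spread between libraries, 1 per mouse and group, in which mouse, culture and library are not separated. The reported fits did not use the pairing by mouse.

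**Figure D2:**
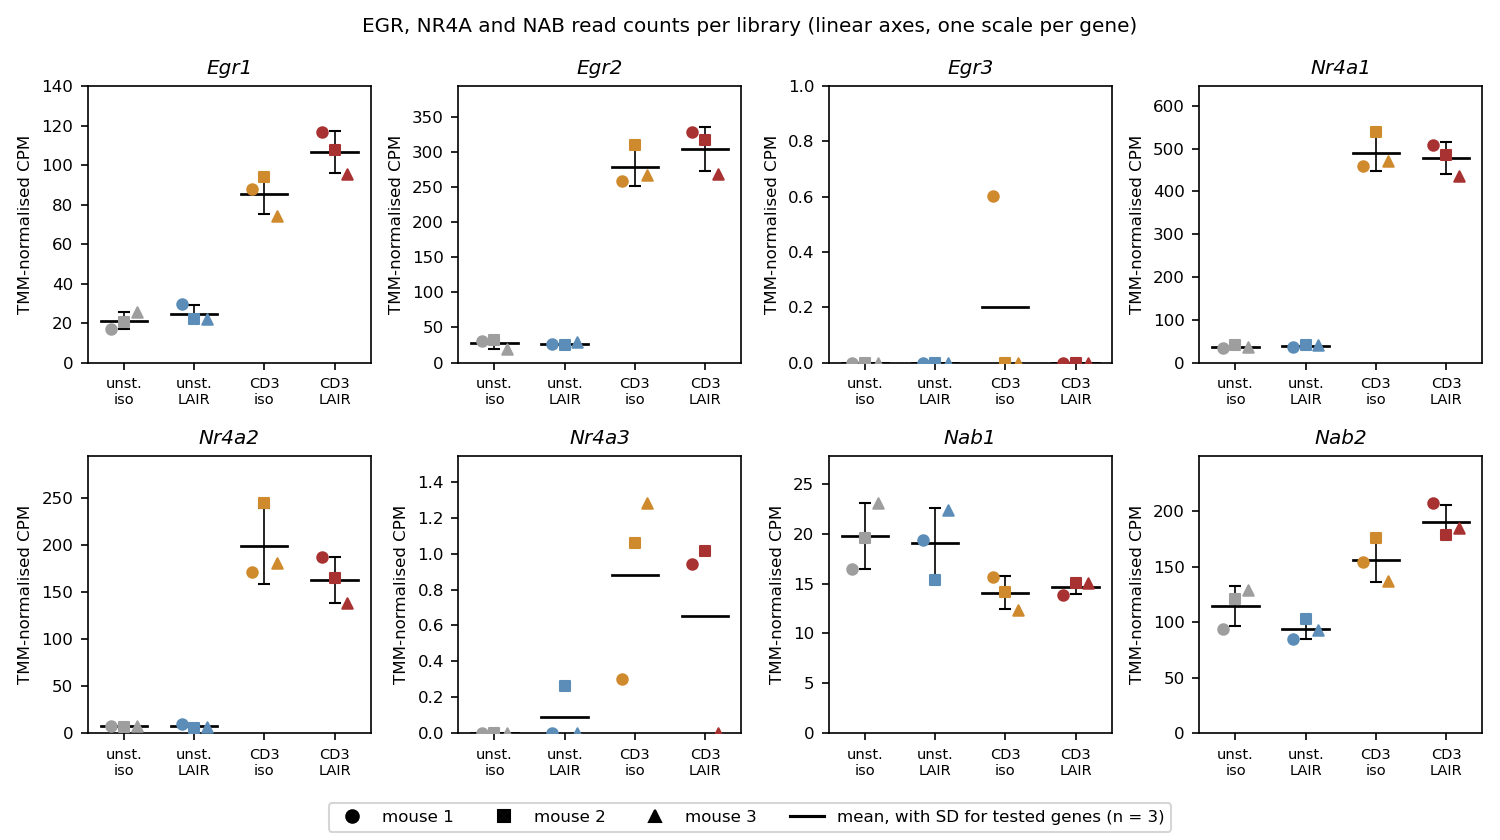
Read counts of the 8 genes in TMM-normalised CPM on the vertical axes, which start at 0 and differ between genes, for the 4 groups of 3 mice; symbols mark the mouse, lines the mean and bars the SD. Egr1, Egr2, Nr4a1 and Nr4a2 are high in all 6 anti-CD3 libraries, and Egr3 and Nr4a3 stay near 0. Nab1 runs from 12.4 to 23.1 CPM and Nab2 from 85.2 to 208 CPM.

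Egr1 (chr18:34859823-34864984, plus strand, mm10) encodes the founding zinc finger factor of the family. It was counted at 17.2, 20.4 and 25.8 CPM in unstimulated isotype libraries of mice 1 to 3 and at 29.6, 22.2 and 21.9 CPM in unstimulated anti-LAIR-1. With anti-CD3 it reached 87.9, 94.0 and 74.2 CPM with isotype and 117, 108 and 95.6 CPM with anti-LAIR-1. Both stimulated groups lay clear of both unstimulated ones, and every anti-CD3 anti-LAIR-1 library lay above every anti-CD3 isotype library. The rise with anti-CD3 was 4.01-fold with isotype (95% interval 3.18 to 5.06, log2 fold change 2.00, SE 0.16, edgeR adjusted p = 1.12e-10) and 4.34-fold with anti-LAIR-1 (3.58 to 5.25, adjusted p = 3.00e-11).

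Egr2 (chr10:67535475-67542188, plus strand), known for holding back T cell activation and for its part in anergy, was at 30.4, 32.6 and 18.8 CPM in unstimulated isotype and 26.00, 25.15 and 28.85 CPM in unstimulated anti-LAIR-1. It stood at 259, 309 and 267 CPM in anti-CD3 isotype and at 328, 317 and 269 CPM in anti-CD3 anti-LAIR-1. The 2 unstimulated groups overlapped, as did the 2 stimulated ones. Anti-CD3 raised Egr2 9.72-fold with isotype (7.90 to 11.97, log2 3.28, SE 0.14, edgeR adjusted p = 2.05e-15) and 11.4-fold with anti-LAIR-1 (9.68 to 13.4, adjusted p = 3.39e-15).

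Egr3 (chr14:70077203-70082614, plus strand), the partner of Egr2 in limiting T cell responses, had 2 reads in all, both in the anti-CD3 isotype library of mouse 1. Over a group, 3 counts corresponded to 0.426 CPM in unstimulated isotype, 0.281 in unstimulated anti-LAIR-1, 0.201 in anti-CD3 isotype and 0.159 in anti-CD3 anti-LAIR-1. For counting error only, the upper 95% limit was 0.524 CPM in unstimulated isotype, 0.345 in unstimulated anti-LAIR-1 and 0.196 in anti-CD3 anti-LAIR-1, all without a read. In anti-CD3 isotype the 2 reads gave 0.201 CPM with an upper 95% limit of 0.484 CPM. Egr3 therefore gives no comparison here.

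Nr4a1 (chr15:101254269-101274795, plus strand) encodes NUR77, widely used as a reporter of T cell receptor signalling, and drew the most reads of the 8 genes, 16435 in all. Its levels were 35.01, 40.32 and 36.05 CPM in unstimulated isotype, 36.2, 40.2 and 40.3 CPM in unstimulated anti-LAIR-1, 459, 539 and 472 CPM in anti-CD3 isotype and 510, 486 and 436 CPM in anti-CD3 anti-LAIR-1. The rise was 12.9-fold with isotype (10.9 to 15.2, log2 3.69, SE 0.12, edgeR adjusted p = 7.34e-18) and 12.2-fold with anti-LAIR-1 (10.6 to 14.1, adjusted p = 4.14e-16). Per mouse, the isotype log2 rise was 3.70, 3.72 and 3.69, a spread smaller than that of any other tested member.

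Nr4a2 (chr2:57106830-57124003, minus strand), which encodes NURR1, was low at rest, with 7.93, 6.52 and 7.53 CPM in unstimulated isotype and 9.68, 5.56 and 6.14 CPM in unstimulated anti-LAIR-1. It reached 171, 245 and 180 CPM in anti-CD3 isotype and 187, 165 and 138 CPM in anti-CD3 anti-LAIR-1. The library of mouse 2 in anti-CD3 isotype was the highest of the 12. Its rise was the largest among the 6 tested genes, 26.3-fold with isotype (20.1 to 34.4, log2 4.72, SE 0.19, edgeR adjusted p = 3.63e-16) and 22.9-fold with anti-LAIR-1 (17.8 to 29.4, adjusted p = 3.33e-14), and lay at percentile 99.3 of all log2 fold changes with isotype.

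Nr4a3 (chr4:48045153-48086447, plus strand), which encodes NOR1, had 28 reads in all. No read was counted in unstimulated isotype and 1 in unstimulated anti-LAIR-1, whereas anti-CD3 isotype libraries held 0.302, 1.06 and 1.28 CPM and anti-CD3 anti-LAIR-1 libraries 0.943, 1.01 and 0 CPM. With at most 8 reads in a library it did not pass the filter on low counts and was not tested.

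Nab2 (chr10:127660918-127668568, minus strand) was already expressed at rest, at 93.8, 121 and 129 CPM in unstimulated isotype and 85.2, 102 and 92.9 CPM in unstimulated anti-LAIR-1. It was at 155, 176 and 137 CPM in anti-CD3 isotype and at 208, 179 and 185 CPM in anti-CD3 anti-LAIR-1, so that the lowest library of the last group lay just above the highest of the third. The rise was 1.34-fold with isotype (1.12 to 1.60, log2 0.42, SE 0.12, edgeR adjusted p = 0.00472) and 2.03-fold with anti-LAIR-1 (1.76 to 2.33, log2 1.02, SE 0.10, adjusted p = 1.30e-08). The isotype call was lost without unstimulated isotype replicate 1 (log2 0.28, edgeR adjusted p = 0.0540) and under upper quartile scaling (0.24, adjusted p = 0.0829). That scaling moved the median of all genes from -0.03 to -0.20 with isotype and from -0.04 to -0.24 with anti-LAIR-1, and relative to the median Nab2 stood at 0.44 under either scaling with isotype. The 3′ ends of Nab2 and Stat6, on opposite strands, share 40 bases, and the strand used in counting is not given in the sources used here. Stat6 did not pass any of the tests (log2 -0.09 with isotype and 0.18 with anti-LAIR-1).

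Nab1 (chr1:52457294-52500679, minus strand), the second NAB co-repressor, was at 16.5, 19.6 and 23.1 CPM in unstimulated isotype, 19.4, 15.4 and 22.4 CPM in unstimulated anti-LAIR-1, 15.7, 14.2 and 12.4 CPM in anti-CD3 isotype and 13.9, 15.0 and 15.0 CPM in anti-CD3 anti-LAIR-1. The groups barely separated, at 16.5 against 15.7 CPM with isotype and 15.4 against 15.0 CPM with anti-LAIR-1. The fitted log2 difference was -0.52 (SE 0.22, edgeR adjusted p = 0.0394) with isotype and -0.39 (SE 0.18, adjusted p = 0.0628) with anti-LAIR-1. The isotype call held in 6 of 14 other settings, and was lost with the mouse as a block (-0.52, edgeR adjusted p = 0.0530) and in DESeq2 (-0.46, adjusted p = 0.180). It was also lost without unstimulated isotype replicate 2 or 3 or anti-CD3 isotype replicate 2 or 3 (edgeR adjusted p = 0.0714, 0.134, 0.0858 and 0.168). With anti-LAIR-1 the fall passed in 3 of 14 other settings. These were upper quartile scaling (-0.60, edgeR adjusted p = 0.00701), at least 10 counts in every library (-0.43, adjusted p = 0.0414) and leaving out unstimulated anti-LAIR-1 replicate 2 (-0.53, adjusted p = 0.0230). Relative to the median of all genes Nab1 stood at -0.354 (TMM) and -0.355 (upper quartile) with anti-LAIR-1 and at -0.49 under both with isotype. The 2 anti-CD3 comparisons use separate libraries of the same mice.

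**Figure D3:**
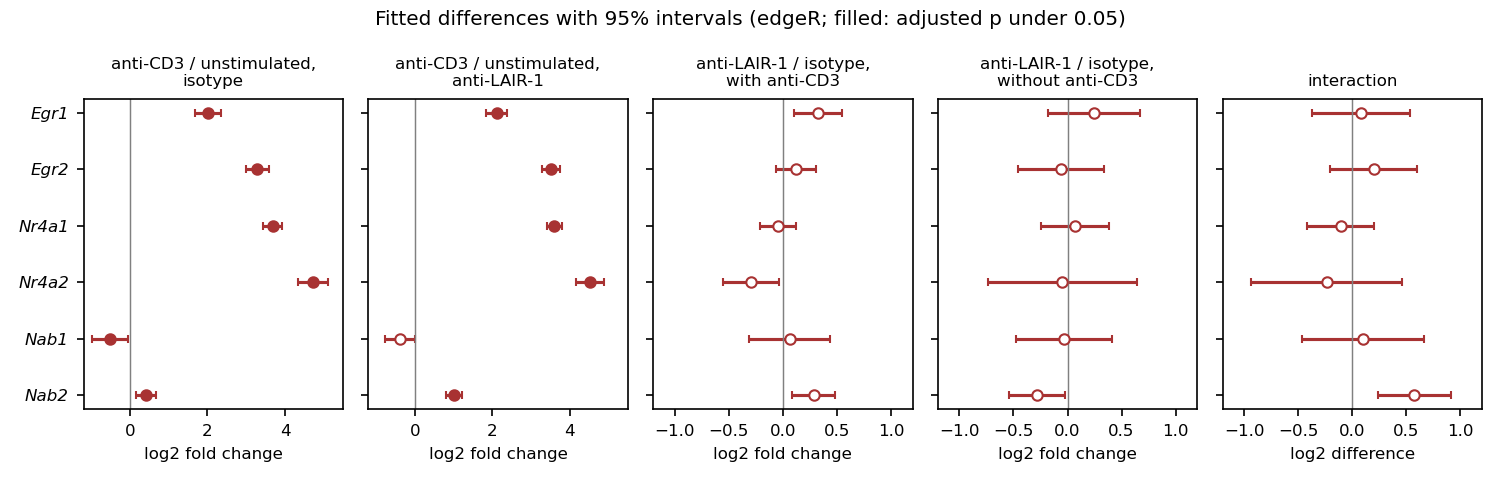
Fitted log2 differences of the 6 tested members (points) with 95% intervals (bars) in 4 comparisons of 2 groups and in the interaction; filled points have an edgeR adjusted p under 0.05, and the first 2 panels have a wider axis than the others. The first 2 panels hold all the filled points; with anti-LAIR-1 and anti-CD3 the intervals of Egr1, Nab2 and Nr4a2 exclude 0, unadjusted, and their points are open.

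The second question was whether anti-LAIR-1 changed these genes. In anti-CD3 cultures, none of the 6 tested members passed the edgeR test at an adjusted p of 0.05, when 5.76% of 8800 genes did. DESeq2 also called 0, and 3 of 6 had an unadjusted p under 0.05 in each tool. In edgeR 18.8% of all 8800 genes tested had an unadjusted p under 0.05. Egr1 was 1.25-fold higher with anti-LAIR-1 (1.08 to 1.46, log2 0.33, SE 0.10, edgeR adjusted p = 0.0801) and higher in 3 of 3 mice. With the mouse as a block its difference passed (0.32, edgeR adjusted p = 0.0461), as it did without anti-CD3 anti-LAIR-1 replicate 3 (0.39, adjusted p = 0.0482). Its adjusted p ranged from 0.0207 to 0.305 over 14 other settings. Nab2 was 1.22-fold higher (1.06 to 1.40, log2 0.29, SE 0.09, edgeR adjusted p = 0.0898) and higher in 3 of 3 mice, by 0.43, 0.02 and 0.43 on the log2 scale. Its difference passed without anti-CD3 isotype replicate 2 (0.38, edgeR adjusted p = 0.0363), and its adjusted p ranged from 0.0212 to 0.331. For Egr1 and Nab2 the groups did not overlap, which was so for 24.0% of all genes tested.

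The NR4A genes gave other values. Nr4a2 was 0.817 times its isotype level (0.683 to 0.978, log2 -0.29, SE 0.12, edgeR adjusted p = 0.202), lower in mice 2 and 3 by 0.57 and 0.39 on the log2 scale but higher in mouse 1 (0.13). Nr4a1 had a log2 fold change of -0.05 (95% interval -0.21 to 0.12, edgeR adjusted p = 0.819) and Nab1 of 0.06 (-0.31 to 0.43, adjusted p = 0.899). That of Egr2 was 0.12 (-0.06 to 0.31, edgeR adjusted p = 0.497), with overlapping groups and differences of 0.34, 0.03 and 0.01 in mice 1 to 3. These intervals bound the change of Nr4a1 to between 0.863 and 1.09 times and that of Egr2 to between 0.958 and 1.24 times, whereas a change of Nab1 between 0.807 and 1.35 times remained possible.

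Without anti-CD3, none of the 6 tested members passed and no gene did (0% of 8770 tested in edgeR, where 384 had an unadjusted p under 0.05, and 0 in DESeq2). Nab2 alone of the 6 had an unadjusted p under 0.05 in edgeR, with a log2 fold change of -0.28 (95% interval -0.54 to -0.02, adjusted p = 0.997), and was lower in 3 of 3 mice while the groups overlapped. The other 5 lay between -0.06 and 0.24, with intervals that reached from -0.74 (Nr4a2, at few reads) to 0.67 (Egr1). For no tested member did these groups separate, as they did for 9.66% of all genes.

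The difference between the 2 anti-LAIR-1 effects was tested as an interaction over all 12 libraries, and no member passed in edgeR against 2.07% of 9223 genes. Nab2 was closest, with a log2 difference of 0.57 (SE 0.16, 95% interval 0.23 to 0.91, edgeR adjusted p = 0.0699), since its anti-LAIR-1 difference was below 0 at rest and above 0 with anti-CD3. It passed in DESeq2 (0.57, adjusted p = 0.0371), in 5 of 19 other settings in all, and the block gave an edgeR adjusted p of 0.0603. Over these settings its adjusted p ranged from 0.0200 to 0.193. Without unstimulated isotype replicate 1 the value was 0.70 (edgeR adjusted p = 0.0200) and without anti-CD3 isotype replicate 2 it was 0.67 (adjusted p = 0.0481). The Stat6 interaction was 0.24 (SE 0.15, edgeR adjusted p = 0.550). For the other 5 members the interaction lay between -0.23 and 0.20, with edgeR adjusted p of 0.763 or more.

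Lists of related genes, 5 in all, place the members beside their pathway, each described by its counts. Of all genes tested, anti-CD3 with isotype raised 35.3% and lowered 36.1%. Anti-LAIR-1 with anti-CD3 raised 3.9% and lowered 1.86%, and the interaction was called for 2.07%. Of 30 other early response genes, 24 were tested with isotype, and anti-CD3 raised 16 and lowered 5 (median log2 1.12). Myc, a driver of cell growth, rose by 3.94, Irf4, a factor whose amount scales with receptor signal strength, by 2.84, and the ERK phosphatase gene Dusp2 by 1.66 on the log2 scale. Zfp36l2, an mRNA decay factor, fell by 1.81. Anti-LAIR-1 with anti-CD3 raised 2 of 27 (Zfp36 by 0.45 and Zfp36l2 by 0.41) and lowered 1, the stress factor gene Atf3, which fell by 1.01 (median of the list 0.06, of all genes 0.00474).

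Of 27 upstream regulators, 25 were tested, and with anti-CD3 5 rose and 13 fell (median -0.41). Mkl1, the actin-regulated cofactor of serum response factor, fell by 2.79. Hdac5, which represses MEF2 targets, fell by 2.90, Rasgrp1, which couples receptor signals to Ras, fell by 2.13, and Nfatc3 fell by 1.92. Anti-LAIR-1 raised 2 of 26, Mkl1 by 0.56 and Hdac5 by 0.87, and lowered 0 (edgeR adjusted p = 0.0277 and 0.0488). Mean levels of Mkl1 were 140 CPM in unstimulated isotype, 20.6 CPM in anti-CD3 isotype and 30.5 CPM in anti-CD3 anti-LAIR-1. Of 21 NAB and NR4A partners, all tested, 9 rose and 7 fell with anti-CD3 (median 0.11). The NuRD helicase gene Chd4, through which NAB2 represses, rose by 1.00, Hdac2 by 1.17 and Trim28 by 1.12, while Chd3, a paralogue of Chd4, fell by 1.68. Anti-LAIR-1 lowered 1 of 20, Gatad2b, which fell by 0.52.

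Of 24 genes described as EGR2 or EGR3 targets in T cells, 19 were tested, and 11 rose and 6 fell with anti-CD3 (median 0.69). Tnfrsf9, which encodes the costimulatory receptor 4-1BB, rose by 5.25 and Crtam, an adhesion receptor gene, by 5.69, while Dgka, which encodes the diacylglycerol kinase that limits Ras signalling, fell by 3.62. Sema7a was at no more than 2.67 CPM in any unstimulated library and at 115 CPM or more in every anti-CD3 library. Anti-LAIR-1 with anti-CD3 raised 4 of 20 and lowered 2. Dgka was higher by 1.23 and the cell cycle inhibitor gene Cdkn1b by 1.05, while Sema7a fell by 0.61 and the cytokine gene Il2 fell by 1.07. Id3 (0.42) and Bcl6 (1.07), also raised, were named after their values were seen.

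Of 16 genes described as NR4A targets in T cells, 13 were tested, and 6 rose and 7 fell with anti-CD3 (median -1.01). The lymphoid egress receptor gene S1pr1 fell by 5.66 and its activator Klf2 fell by 3.74, while Il2ra rose by 5.00 and Tnf by 5.08. Anti-LAIR-1 with anti-CD3 raised 3 of 12 and lowered 3. S1pr1 was higher by 1.97 and Klf2 by 1.02, while the granzyme B gene Gzmb fell by 2.65 and Ifng fell by 1.44. Il2ra (-0.49) and Bcl2l11 (0.32), also called, were named after their values were seen. In the interaction, 2 genes of each target list were called, all higher: Dgka (1.32) and Cdkn1b (1.06), and S1pr1 (1.92) and Klf2 (0.69). The anti-CD3 and anti-LAIR-1 comparisons share the anti-CD3 isotype libraries, so their values are given side by side only. Without anti-CD3, no gene of the 5 lists passed.

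**Figure D4:**
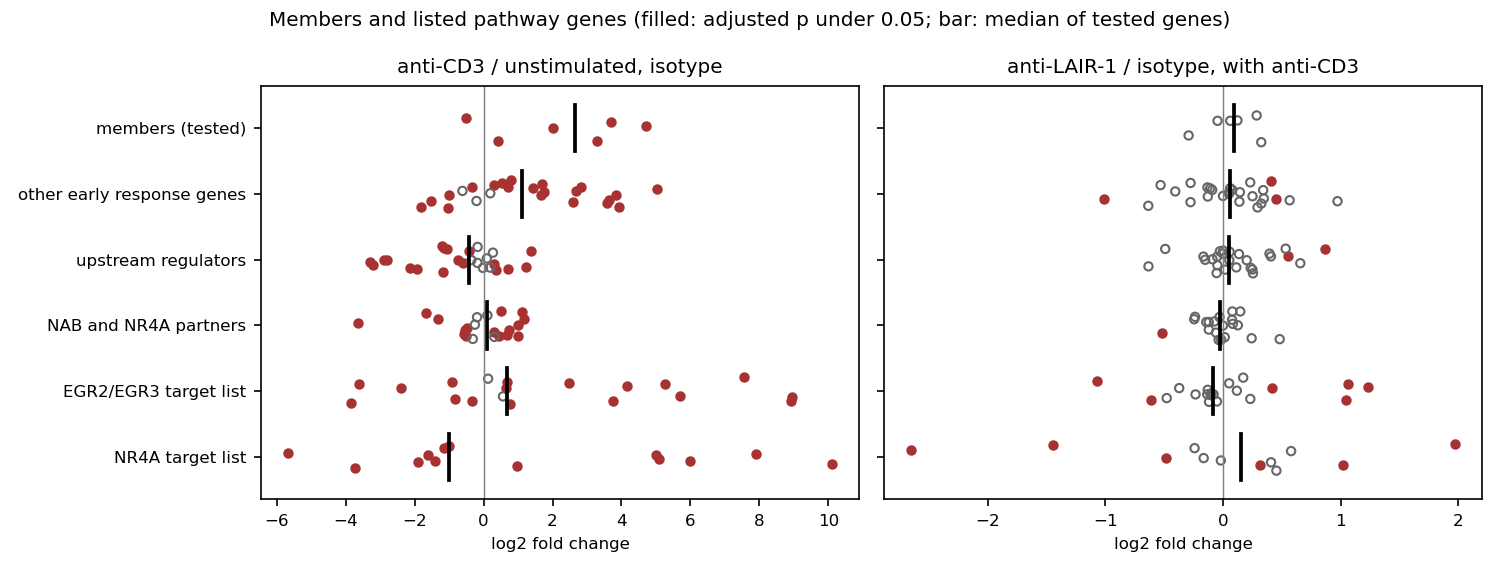
Log2 fold changes of the 6 tested members and of the tested genes of 5 lists with anti-CD3 (left) and with anti-LAIR-1 in anti-CD3 cultures (right); each point is a gene, filled where the edgeR adjusted p is under 0.05, and bars mark medians. On the left, the 6 member points are filled and their median is 2.64; on the right, none is filled, and the filled points of the target lists lie on both sides of 0.

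Among 9217 other genes, those whose log2 CPM followed each member most closely over the 12 libraries, after centring, were found by the root mean square difference on the log2 scale. Txnrd1 was closest to Egr1 (0.16), Dusp4 to Egr2 (0.25), Cbr3 to Nr4a1 (0.13), Il2ra to Nr4a2 (0.25), Rlf to Nab1 (0.12) and Il2rg to Nab2 (0.13). Dusp4 and Cbr3 had few or no reads at rest, so their distance depends on the prior count. Mean levels of Il2rg, the common cytokine receptor chain, were 2009 CPM in unstimulated isotype, 1786 CPM in unstimulated anti-LAIR-1, 2738 CPM in anti-CD3 isotype and 2995 CPM in anti-CD3 anti-LAIR-1. Il2rg was picked for its closeness to Nab2 over these libraries, so the like order of their means is no separate result. Map2k3 and Myc came next for Nr4a1, and Cfl1 and Ripk3 for Nab2.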

How the data were processed

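The deposited file holds raw read counts per gene symbol for 12 CEL-seq libraries. The authors used BWA MEM to place read 2 on the mm10 transcriptome, dropped reads without a single best position, and made the count table with MapAndGo, without normalization. Whether reads sharing a molecular identifier were collapsed is not given in the sources used here, so limits cover counting error only.

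Counts were scaled by TMM and tested with edgeR 4.0.16 (R 4.3.3), using filterByExpr, the quasi-likelihood test and p-values adjusted by Benjamini-Hochberg across every tested gene, at a threshold of 0.05. Each comparison of 2 groups was fitted on its 6 libraries alone and the interaction on all 12, where CPM values also come from. Log2 CPM used a prior count of 2. DESeq2, the tool the study's methods name, was an alternative (version 1.42.0 here), with other scalings, filters, a mouse block and each library left out. The fits were also run on simulated counts without a mouse effect. The planted changes were larger than any tested member's anti-LAIR-1 difference, so those runs do not give the power for differences of that size.

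The members were picked out by symbol alone, but they and the gene lists were proposed with earlier results of these data known, and the 5 lists come from general knowledge. Named genes are the 8 members, at most 4 genes per list with the lowest adjusted p in the anti-CD3 (isotype) or anti-LAIR-1 (with anti-CD3) comparison, and the 3 genes most alike each member. The methods describe cells sorted per mouse and the labels number the mice 1 to 3, so same-numbered libraries are paired. Deviations from the group means correlated at a mean r of 0.0265 to 0.0891 between same-mouse libraries, by comparison. Gene positions are from GENCODE on GRCm38 (mm10).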

Additional observations from a re-analysis of the deposited data

How the results depend on the processing

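Rises of Egr1, Egr2, Nr4a1 and Nr4a2 with anti-CD3 passed in all 112 other fits run (14 per gene and comparison). The number of members called stayed within 5 to 6 for anti-CD3 in either antibody arm when a library was left out, and at 0 for anti-LAIR-1 without anti-CD3. For anti-LAIR-1 with anti-CD3 it went from 0 to 1 with the mouse as a block in edgeR (Egr1), to 3 with no filter on low counts (Egr1, Nab2 and Nr4a2) and over 0 to 1 with libraries left out. For the interaction it was 1, Nab2, with no filter, in DESeq2 and in DESeq2 with the block, and 0 to 1 with libraries left out. The edgeR block lost the Nab1 call for anti-CD3 with isotype (-0.52), and besides this and the Egr1 call changed no edgeR call of a tested member. Of Nr4a3, untested here, no filter gave an edgeR adjusted p of 0.0291 for anti-CD3 with isotype from 14 reads against 0, and DESeq2 0.124. Signs of values near 0 turned in some of the other settings, and the ranges given are over all of those settings. For anti-LAIR-1 with anti-CD3 these were Nr4a1 (-0.095 to 0.0254) and Nab1 (-0.0436 to 0.136). Without anti-CD3 they were Egr2 (-0.239 to 0.0693), Nr4a2 (-0.326 to 0.104) and Nab1 (-0.172 to 0.103). In the interaction they were Egr1 (-0.0653 to 0.232), Nab1 (-0.0381 to 0.232) and Nr4a2 (-0.387 to 0.0427). The cause of these changes was not tested. With a prior count of 0.5, 2 of the 3 genes most alike Egr1, Egr2, Nr4a1, Nr4a2 and Nab1 were shared, and 3 of 3 for Nab2. Egr3 and Nr4a3, with 2 and 28 reads in all, did not pass the filter on low counts.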

Other observations

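Egr4, the EGR family gene outside the 8 followed here, had no read in any of the 6 unstimulated libraries. It had 25 reads in all in anti-CD3 isotype, at 1.78 ± 0.669 CPM (SD, n = 3), and 47 in anti-CD3 anti-LAIR-1, at 2.67 ± 1.96 CPM (SD, n = 3). The difference between the stimulated groups was 0.57 on the log2 scale (95% interval -0.54 to 1.68, edgeR adjusted p = 0.629).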
